A study of Vitis vinifera with 204 samples.

Results

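A set of 4 transcriptional and protein-turnover regulators of the grape berry, out of 29971 gene IDs in the deposited table, was followed through ripening. They were chosen by gene ID from a list of genes known as grapevine switch genes: a LOB domain gene (VIT_03s0091g00670), WRKY19 (VIT_07s0005g01710), ERF045 (VIT_04s0008g06000) and a C3HC4 zinc finger gene (VIT_08s0007g00270). The names are those given with the list, since the table holds IDs without names. RNA was sequenced from pericarp of Cabernet Sauvignon, a red Vitis vinifera wine grape of a single clone, picked in a vineyard near Modesto, California, in 2012, 2013 and 2014. All vines had lost clusters after fruit set: moderate thinning took off 50% of the crop load and severe thinning 75%. Unthinned vines were not analysed here. Each of the 34 season time points held 3 libraries per thinning intensity, 102 libraries per intensity in all, from day -28 to day 80 after veraison in 2012, day -20 to day 43 in 2013 and day -14 to day 63 in 2014. For each library 60 berries of 6 clusters were ground together and the seeds taken out, so p-values measure the spread between berry pools from 3 rows of vines per treatment.

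Veraison is the turn from green, hard, acid berries to soft, coloured, sugar-loading ones, and in grape it runs without the ethylene burst that drives tomato ripening. The term switch gene comes from network studies of grapevine, where it was given to genes that are low in green organs, high in mature ones, and that run against the course of many other genes. LOB domain proteins are plant-specific DNA-binding factors known from organ boundaries and lateral root formation. WRKY proteins bind W-box elements and are best known from defence and senescence. ERF proteins belong to the AP2/ERF family, and their name stands for ethylene response factor. C3HC4 zinc fingers are the RING type, found in many E3 ubiquitin ligases, which mark other proteins for breakdown.

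Values were RPKM (reads scaled by gene length and by the mapped reads of the library), so levels may be compared between genes, and tests were run on log2(RPKM + 1). All 4 genes passed the filter of at least 1 RPKM in at least 3 libraries, and 20770 genes were tested. RPKM summed to between 817623 and 1105136 per library, and read depth is unknown. Of all libraries, 83 held RPKM values of a second form (20 or more of 9114 steadily expressed genes listed under 0.5 RPKM). These were all 72 of 2014 and 11 of 2013, 2 of which lay among other libraries of the first form, as replicate 2 at 75% on days -20 and -6. In these 2 libraries WRKY19 was the lowest of 6 on day -20 (33.0 RPKM) and the highest of 6 on day -6 (131 RPKM). The other second-form libraries of 2013 were all those at 75% on day 36 and all of day 43. At 50% on day 36 all libraries were of the first form, so thinning and form cannot be told apart on that day. On day 80 of 2012 replicate 2 stood apart in both thinning arms, with 19.8 and 22.5 g/100 ml sugar against 26.0 to 29.1 in the other 4 libraries. In such bulk samples fewer cells that express a gene and less RNA per cell cannot be told apart. Markers of pericarp and seed could not be applied to IDs without names, so the tissue was not checked.

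At the onset of ripening 3 of the 4 genes rose and the zinc finger gene fell. ERF045 made the widest move. Its 48 green libraries lay between 4.56 and 231 RPKM with a median of 17.6, and its 48 libraries of days 8 to 22 lay between 203 and 486 with a median of 374. The groups overlapped only through green libraries of day -6 of 2013, which held 142 to 231 RPKM. The log2 change was 3.81 (SE 0.10, limma adjusted p = 4.34e-73), the 64th highest of 20770 genes. WRKY19 had the highest green level of the set. It lay between 21.1 and 131 RPKM with a median of 43.4 in green berries, and between 84.8 and 161 with a median of 111 on days 8 to 22. Its log2 change was 1.26 (SE 0.03, limma adjusted p = 9.13e-77). The LOB domain gene was much lower, between 0.238 and 13.9 RPKM with a median of 1.89 in green berries and between 4.06 and 21.8 with a median of 10.8 (mean 10.9 ± 3.48, SD, n = 48) on days 8 to 22. Its log2 change was 1.65 (SE 0.07, limma adjusted p = 3.03e-47). Because its green level was low, the 1 added to each RPKM narrows this change and the LOB steps out of green berries given below.

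The zinc finger gene ran the other way, and against the description of a switch gene given above. It lay between 0.519 and 5.05 RPKM with a median of 2.17 in green berries, and between 0.0759 and 1.20 with a median of 0.366 on days 8 to 22. The log2 change was -1.11 (SE 0.04, limma adjusted p = 1.83e-60). Because its ripe level lay under 1 RPKM, the added 1 narrows this change, which was -2.14 with 0.1 added in its place. It was at 1 RPKM or more in 43 libraries, 39 of them among the 48 green ones. Over all genes tested, 4.55% rose and 17.9% fell by this rule (limma adjusted p under 0.05 and at least 2-fold), and the median log2 change of all genes was -0.24. With quantile normalization, which moved that median to 0.09, the zinc finger gene fell by 0.64 and was no longer called.

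**Figure D1:**
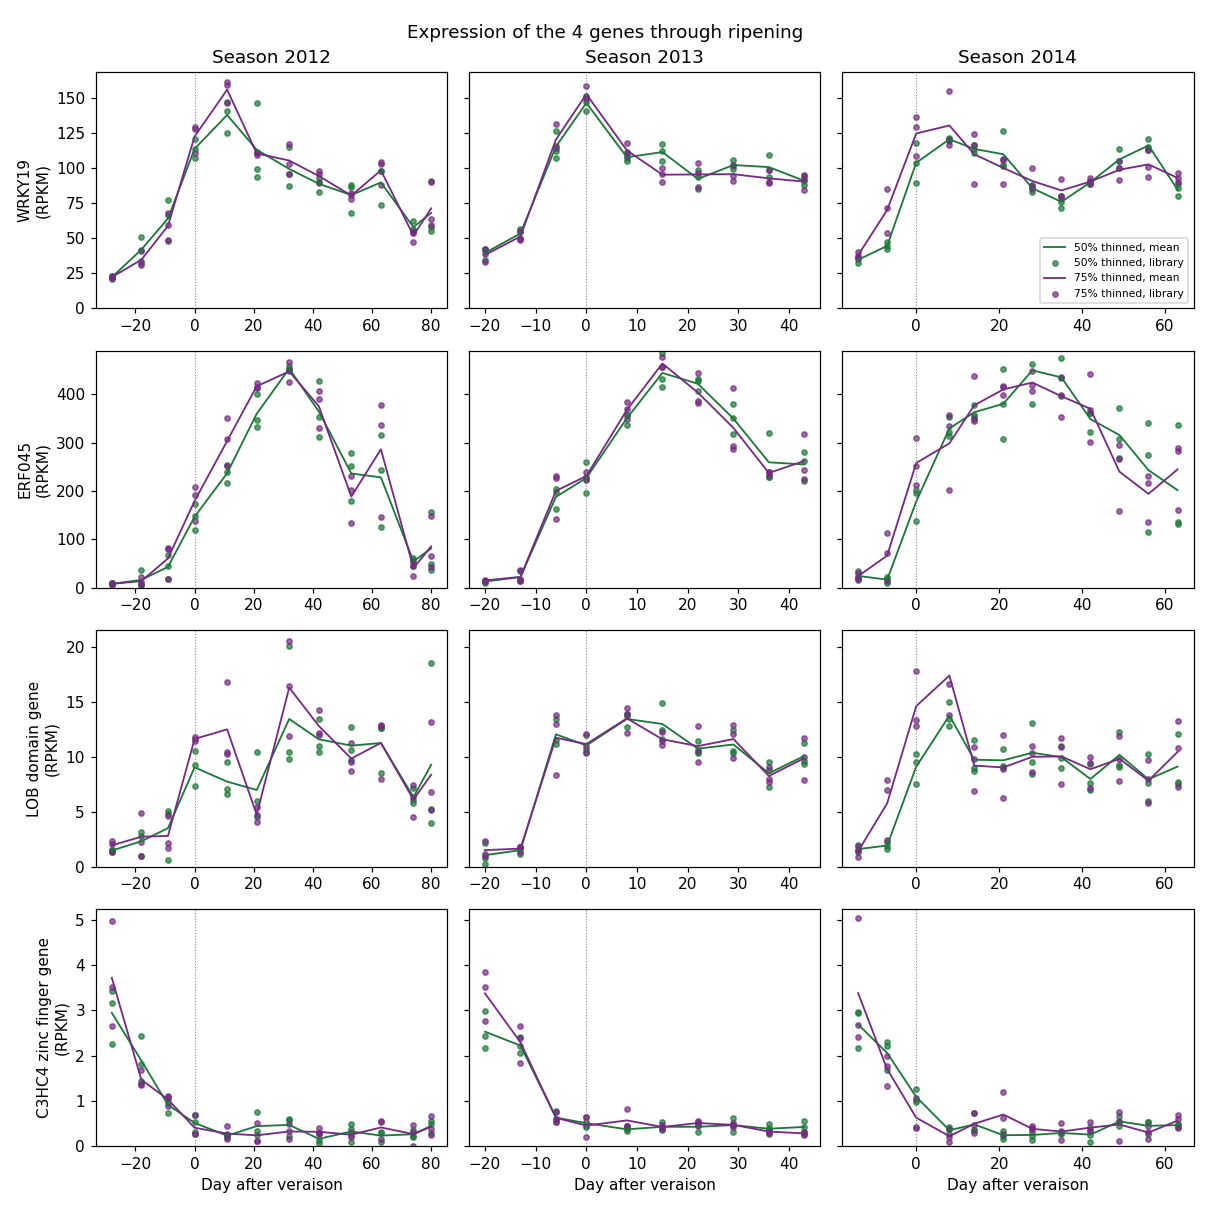
RPKM of each gene (rows) against day after veraison in the 3 seasons (columns); points are libraries, lines join the means of 3 libraries per thinning intensity, and the dotted line marks day 0. WRKY19 peaked on days 0 to 11 and ERF045 on days 15 to 32. The LOB domain gene, lower than both, peaked on day 32 of 2012 and on day 8 of 2013 and 2014. The zinc finger gene was near its lowest level from day 0 or day 8 on.

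WRKY19 climbed in steps that began in the green berry. In 2012 the 6 libraries per time point held 21.1 to 23.1 RPKM on day -28 (median 22.2), 31.0 to 50.6 on day -18, 48.3 to 77.5 on day -9 and 107 to 129 on day 0. No library of a time point overlapped with the next, except that the highest of day -18 passed the lowest of day -9. Each of these steps passed the adjusted threshold but none reached 2-fold, with log2 changes of 0.74, 0.67 and 0.95 (SE 0.09 each; limma adjusted p = 7.10e-13, 8.71e-11 and 5.57e-19). In the same steps 10683, 9528 and 13897 of the 20770 genes tested had an unadjusted p under 0.05. In 2013 WRKY19 rose between day -13 and day -6 by 1.15 (SE 0.09, limma adjusted p = 1.86e-24). In 2014 it rose between day -7 and day 0 by 1.02 (SE 0.09, limma adjusted p = 2.96e-20). With median ratio scaling the 2014 step was 0.97 and not called. The peak came on day 11 of 2012 at 138 RPKM ± 11.3 (SD, n = 3) with 50% thinning and 156 ± 8.18 with 75%. In 2013 it came on day 0, at 146 ± 5.13 and 152 ± 5.23, and in 2014 on day 8, when the 6 libraries held 116 to 155 RPKM.

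ERF045 rose over a longer stretch and peaked later. In 2012 it was at 5.68 to 8.54 RPKM on day -28, 17.7 to 82.6 on day -9, 119 to 208 on day 0, 217 to 351 on day 11 and 426 to 467 on day 32. The step from day -18 to day -9 was 1.84 and that from day -9 to day 0 was 1.87 on the log2 scale (SE 0.28 each; limma adjusted p = 2.39e-08 and 3.70e-09), where 1.76% and 3.19% of all genes rose. In 2013 a single step, from day -13 (13.1 to 36.3 RPKM) to day -6 (142 to 231), held a rise of 3.19 on the log2 scale (SE 0.28, limma adjusted p = 7.58e-20). In 2014 the step from day -7 to day 0 held 2.88 (SE 0.28, limma adjusted p = 8.06e-17). The share of all genes that rose in these steps was 3.09% and 1.85%. After them the level went on upward in steps that did not reach 2-fold, to peaks of 445 RPKM ± 36.8 and 464 ± 12.1 (SD, n = 3; 50% and 75% thinning) on day 15 of 2013 and 450 ± 65.3 and 425 ± 20.9 on day 28 of 2014. The peak levels of the 3 seasons lay within 425 to 464 RPKM.

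The LOB domain gene rose in steps that ERF045 also took, and then held a far lower level than WRKY19 and ERF045. It was at 0.648 to 5.08 RPKM on day -9 of 2012 and at 7.33 to 11.8 on day 0, at 1.17 to 1.82 on day -13 of 2013 and at 8.37 to 13.9 on day -6. Neither pair of time points overlapped. The log2 changes were 1.58 and 2.31 (SE 0.21 each; limma adjusted p = 1.07e-11 and 5.18e-20), and in 2014 it rose by 1.55 between day -7 and day 0 (SE 0.21, limma adjusted p = 7.49e-11). After its early peak it went to 4.06 to 10.4 RPKM on day 21 of 2012 and, in 2014, from 12.9 to 21.8 on day 8 to 6.86 to 11.6 on day 14. These steps of -0.70 and -0.66 (SE 0.21 each; limma adjusted p = 0.00387 and 0.00895) did not reach 2-fold. In 2012 it then rose by 1.21 to 9.86 to 20.6 on day 32 (SE 0.21, limma adjusted p = 2.92e-07), where 1.79% of all genes rose. On day 32 replicate 1 was the highest in each arm, at 20.1 and 20.6 RPKM, and without replicate 1 the step was 0.98 and not called.

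The zinc finger gene declined in steps through the green stage. Its 6 libraries held 2.25 to 4.99 RPKM on day -28 of 2012, 1.36 to 2.43 on day -18, 0.736 to 1.12 on day -9 and 0.261 to 0.694 on day 0. Successive time points hardly overlapped, and each step passed the adjusted threshold without reaching 2-fold on log2(RPKM + 1). In these steps 10683, 9528 and 13897 of the 20770 genes tested had an unadjusted p under 0.05. The added 1 narrows these steps, since the means were 3.34, 1.68, 0.969 and 0.455 RPKM. In 2013 it fell between day -13 and day -6, by 1.002 (SE 0.11, limma adjusted p = 1.06e-15), just past the threshold, where 8.83% of all genes fell. The step was not called with median ratio scaling (-0.99), quantile normalization (-0.65), the form as a covariate (-0.97) or without replicate 3 (-0.93). In 2014 the decline went on to day 8, with 1.34 to 2.29 RPKM on day -7, 0.387 to 1.25 on day 0 and 0.0759 to 0.411 on day 8. From then on every library held at most 1.20 RPKM, and 1 library of day 74 of 2012 is listed at 0.

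The order of the switches was described by the interpolated day on which each gene's mean log2 level passed the midpoint between the first time point and its highest level (for the zinc finger gene, its lowest). WRKY19 passed it before ERF045 in all 6 courses of season and thinning intensity, by 0.95 to 5.86 days, and in 5 of 6 courses without replicate 3. The LOB domain gene passed it before ERF045 in 4 of 6 courses and before WRKY19 in 1 of 6. The days lay between -11.66 and -8.79 for WRKY19 in 2012, -9.78 and -9.74 in 2013 and -6.78 and -3.89 in 2014. ERF045 lay between -7.47 and -5.80, -8.83 and -8.60, and -3.96 and -1.59. The gaps are mostly shorter than the interval between samplings, so the order rests on interpolation.

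**Figure D2:**
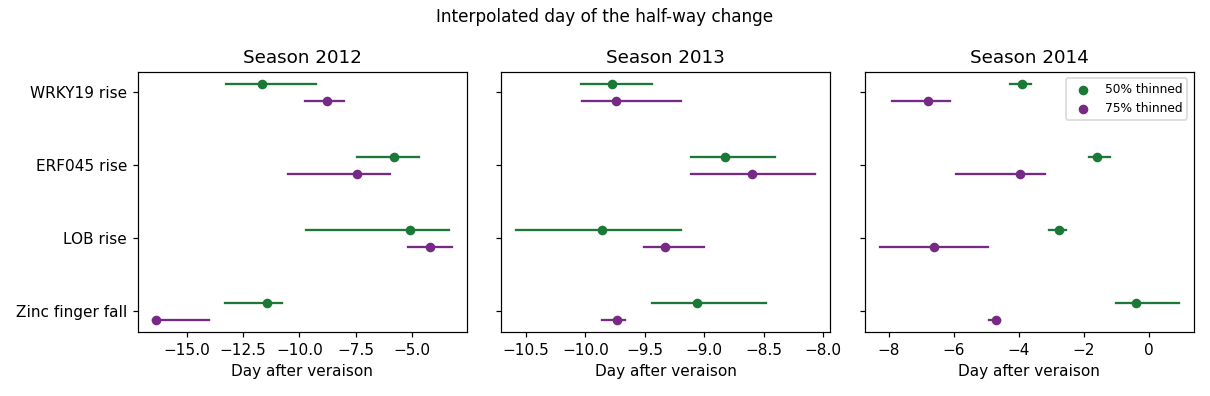
Interpolated day after veraison on which each gene passed the midpoint of its change, by season; points use all libraries and bars span the values without replicate 1, 2 or 3. WRKY19 lies before ERF045 in each of the 6 courses, and in 2014 the 75% arm lies before the 50% arm for each gene.

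On the sugar scale the midpoints of the 4 genes lay between 0.54 and 4.78 g/100 ml. The interpolated sugar content was 0.89 to 1.58 g/100 ml for WRKY19, 1.71 to 3.43 for ERF045 and 0.54 to 2.32 for the zinc finger gene. It was 0.96 to 1.71 for the LOB domain gene in 2013 and 2014, and 3.87 to 4.78 in 2012. Without replicate 1 the LOB domain gene's midpoint at 50% thinning in 2012 moved from 3.87 to 1.64 g/100 ml, and without replicate 3 that of ERF045 at 75% moved from 2.25 to 1.03. On linear RPKM the midpoint of ERF045 lay between 3.15 and 14.4 g/100 ml. In the 39 libraries under 1 g/100 ml ERF045 had a median of 16.0 RPKM (4.56 to 113), and in the 15 libraries with 1 to under 5 g/100 ml a median of 197 (43.9 to 309). WRKY19 went from a median of 41.4 to 112 RPKM between these classes, and the LOB domain gene from 1.67 to 11.2. The zinc finger gene went from 2.29 to 0.764 RPKM. The lower class overlapped with the upper in each gene. In the upper class the 3 rising genes were lower in 2012 (n = 3, 1.37 to 1.78 g/100 ml) than in 2013 and 2014, without overlap. ERF045 held 43.9 to 80.8 RPKM in 2012, 142 to 231 in 2013 and 138 to 309 in 2014. The LOB domain gene held 2.15 to 5.08, 8.37 to 13.9 and 7.55 to 17.8, and WRKY19 59.5 to 77.5, 107 to 131 and 89.6 to 136. The zinc finger gene's 2012 values (0.947 to 1.085 RPKM) lay above those of 2013 (0.519 to 0.764) and within those of 2014. Sugar in this class spanned 1.60 to 3.03 g/100 ml in 2013 and 1.20 to 4.65 in 2014, so the seasons are not matched for sugar within it.

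The sugar class in which WRKY19 had its highest median differed between seasons. It was 10 to under 15 g/100 ml in 2012 (146 RPKM, n = 5) and 2014 (119, n = 9), and 5 to under 10 in 2013 (149, n = 5). No library of 2014 fell in the class of 5 to under 10, so 2014 cannot be set against 2013 here. Over all seasons WRKY19 had a median of 90.5 with 20 or more (47.5 to 126, n = 85). ERF045 had its highest median in each season with 15 to under 20 (399 RPKM over all, 156 to 508, n = 37) and had a median of 287 with 20 or more (23.4 to 475). Over all seasons the LOB domain gene lay between medians of 9.58 and 13.2 RPKM in every class from 1 g/100 ml on. In 2012 its median with 1 to under 5 was 4.83 (n = 3). Sugar and time move together, so these values describe stage as much as sugar.

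**Figure D3:**
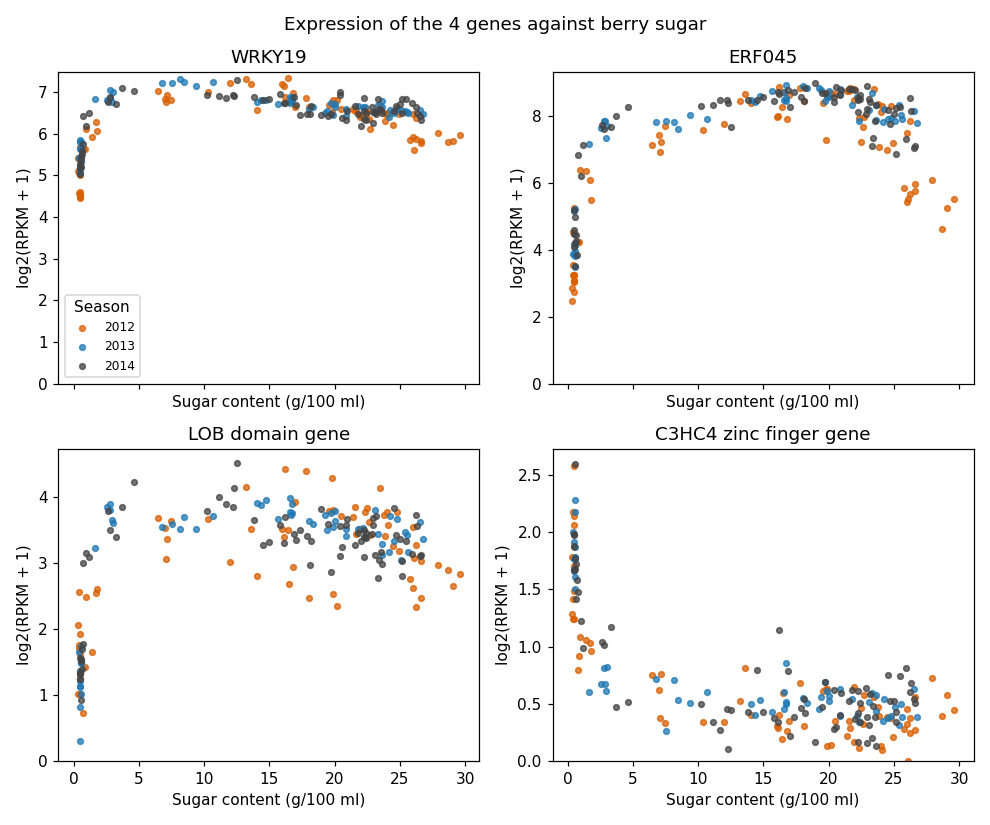
log2(RPKM + 1) of each gene against the sugar content of its library (g/100 ml); each point is 1 library, coloured by season. ERF045, WRKY19 and the LOB domain gene climb between 0.5 and 5 g/100 ml, the zinc finger gene falls there, and the lowest ripe ERF045 values are those of 2012.

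Late in ripening ERF045 fell while the other three stayed within 2-fold of their early level. In ripe berries, those of a season's last 2 samplings, ERF045 had a median of 219 RPKM (23.4 to 340, n = 36) against 374 on days 8 to 22. The log2 change was -1.32 (SE 0.11, limma adjusted p = 5.64e-23), where 8.22% of all genes fell, and without season 2012 it was -0.74 and not called. WRKY19 differed by -0.46 (SE 0.03, limma adjusted p = 1.18e-26) and the LOB domain gene by -0.26 (SE 0.08, limma adjusted p = 0.00131), both under 2-fold. The zinc finger gene differed by 0.0003 (95% interval -0.08 to 0.08, limma adjusted p = 0.996).

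The late fall was deepest in 2012, whose last samplings came latest after veraison. ERF045 fell by 2.49 there (SE 0.20, limma adjusted p = 1.50e-23) and WRKY19 by 1.05 (SE 0.06, limma adjusted p = 1.88e-34), with 11.3% of all genes falling. The changes were -0.69 and -0.12 in 2013, and -0.78 and -0.20 in 2014, none of which reached 2-fold, where 6.82% and 8.06% of all genes fell. The difference between seasons passed the moderated F test for ERF045 (limma adjusted p = 8.12e-10) and WRKY19 (1.18e-20), as it did for 69.9% of all genes. Most of the fall of ERF045 lay between day 63, with 126 to 378 RPKM, and day 74, with 23.4 to 61.8. These time points did not overlap, and the log2 change was -2.36 (SE 0.28, limma adjusted p = 1.11e-12), where 3.61% of all genes fell.

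Replicate 2 behaved alike in both arms at the end of 2012. On day 63 it held 126 and 146 RPKM of ERF045 against 243 to 378 in the other 4 libraries, with 24.4 and 24.9 g/100 ml sugar against 19.6 to 24.8. On day 80 it held 156 and 148 RPKM against 37.2 to 66.2, with the lower sugar given above. WRKY19 (90.9 and 90.3 against 55.3 to 64.0 RPKM) and the LOB domain gene (18.6 and 13.2 against 4.03 to 6.81) were also higher in replicate 2 on day 80. Over all genes the deviations of these 2 libraries from their group means had r = 0.712. Without the replicate 2 libraries of day 80 ERF045 fell by 2.76 and WRKY19 by 1.15 in 2012, and whether the shared number marks a shared row or handling was not tested. The LOB domain gene differed by -0.33 without them and by -0.09 with them.

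The last samplings of 2012 held less ERF045 than those of the later seasons, at unequal days after veraison. The last 2 time points held 23.4 to 156 RPKM in 2012 (median 51.4, n = 12), 221 to 321 in 2013 (median 240.0) and 115 to 340 in 2014 (median 223). The 2012 libraries lay wholly under those of 2013 and overlapped with 2014 through replicate 2 of day 80. ERF045 was higher by 2.13 in 2013 (SE 0.20, limma adjusted p = 1.62e-18) and by 1.85 in 2014 (SE 0.20, limma adjusted p = 7.48e-15), where 3.47% and 1.65% of all genes were higher. WRKY19 was higher by 0.60 and 0.68 (SE 0.06 each; limma adjusted p = 2.29e-16 and 5.78e-19), under 2-fold. Of the 4 genes none was called between 2014 and 2013, against 0.953% of all genes. The ripe samplings of 2012, on days 74 and 80, came later after veraison than those of 2013 (days 36 and 43) and 2014 (days 56 and 63). At nearer days 2012 was not the lower season. ERF045 held 313 to 429 RPKM (mean 370) on day 42 of 2012 against 221 to 318 (mean 259) on day 43 of 2013. Only the lowest library of that day of 2012 lay under the highest of 2013. On day 63 ERF045 held 126 to 378 RPKM (mean 257) in 2012 against 132 to 338 (mean 223) in 2014. The differences at nearer days were not tested. The 3 ripe libraries of 2013 in the first form held 228, 229 and 321 RPKM, all above the 156 that was the highest of ripe 2012. All ripe libraries of 2014 are of the second form and all of 2012 of the first. With the form as a covariate the ERF045 differences were 2.07 and 1.76. That term can be estimated only where a group mixes both forms, which holds for 75% thinning on days -20 and -6 of 2013. These are green berries, so whether the form bears on the ripe differences was not tested.

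On days 8 to 22 the seasons were closer. This stage held days 11 and 21 in 2012, days 8, 15 and 22 in 2013 and days 8, 14 and 21 in 2014. None of the 12 differences between pairs of seasons reached 2-fold in limma. By that rule 1.89%, 2.72% and 2.37% of all genes were called for 2013 against 2012, 2014 against 2012 and 2014 against 2013. The adjusted threshold alone was passed by 6 of the 12, and 6 had an unadjusted p under 0.05. Of all 20770 genes, 11814, 10065 and 11295 had an unadjusted p under 0.05 in these comparisons, so the 6 do not set the 4 genes apart. The widest difference was that of the LOB domain gene. It had a median of 6.87 RPKM in 2012 (4.06 to 16.9, n = 12) and 12.2 in 2013 (9.57 to 14.9, n = 18), a difference of 0.64 on the log2 scale (SE 0.13, limma adjusted p = 1.36e-05). The 2012 value includes the low day 21 (4.06 to 10.4 RPKM), and season and the days sampled cannot be told apart.

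The size of the onset change also varied with season, and the moderated F test of the difference called all 4 genes (limma adjusted p between 4.59e-25 and 0.0453), as it did 75.8% of all genes. WRKY19 changed by 1.75 in 2012, 0.71 in 2013 and 1.32 in 2014, of which the value of 2013 did not reach 2-fold. ERF045 rose by 4.27, 3.39 and 3.76 and the LOB domain gene by 1.39, 1.67 and 1.88. Over all genes 5.63%, 4.58% and 4.64% rose in these seasons. The zinc finger gene changed by -1.13, -0.92 and -1.27, of which that of 2013 did not reach 2-fold, and 20.6%, 16.5% and 18.7% of all genes fell. With a pseudocount of 0.1 the change of 2013 was -1.67 and called, and with quantile normalization those of 2012 and 2014 were -0.61 and -0.77 and not called. Without day -6 of 2013, when sugar was already 1.60 to 3.03 g/100 ml, the 2013 changes were 1.17 for WRKY19, 4.54 for ERF045, 2.48 for the LOB domain gene and -1.30 for the zinc finger gene, and all 12 changes were called.

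No difference between thinning intensities passed the test in the 4 genes over all seasons. The log2 difference at 75% minus 50% thinning was 0.09 for the LOB domain gene (95% interval -0.01 to 0.19), 0.02 for WRKY19 (-0.02 to 0.07), 0.09 for ERF045 (-0.05 to 0.22) and 0.01 for the zinc finger gene (-0.04 to 0.07). Limma adjusted p lay between 0.341 and 0.848, and 0 of the 4 had an unadjusted p under 0.05, where 0.809% of all genes were called. Within seasons 0 of 12 differences were called in limma and 1 had an unadjusted p under 0.05, that of WRKY19 in 2014 (0.08, SE 0.04, limma adjusted p = 0.295). The share of all genes called was 0.00481% in 2012, 0.948% in 2013 and 0.0193% in 2014. On day 36 of 2013 the arms differed in the form of their RPKM values, and whether this bears on the share of 2013 was not tested. The difference between seasons was called for 0 of the 4 genes and 0% of all genes, and 0 of the 4 had an unadjusted p under 0.05 in that F test.

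At single time points the arms parted on day -7 of 2014. ERF045 held 18.2, 10.5 and 20.9 RPKM with 50% thinning and 113, 13.3 and 72.5 with 75% (replicates 1, 2 and 3). Replicates 1 and 3 of the 75% arm were high, and replicate 2 lay among the 50% libraries. The LOB domain gene held 2.25, 1.93 and 1.62 against 7.01, 2.42 and 7.91 RPKM, and WRKY19 held 47.0, 42.2 and 44.5 against 85.1, 53.4 and 71.8. In these genes the arms did not overlap, and replicate 2 was again the lowest of the 75% arm.

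The log2 differences on day -7 were 1.55 for ERF045 (SE 0.40, limma adjusted p = 0.0132), 1.10 for the LOB domain gene (SE 0.29, limma adjusted p = 0.0153) and 0.62 for WRKY19 (SE 0.12, limma adjusted p = 0.000344), so 3 of the 4 genes were called where 2.01% of all genes were higher at 75%. The two-sided exact permutation test, which cannot go below 0.1 with 3 against 3, gave 0.1 for WRKY19 and the LOB domain gene. Sugar on that day was 0.60, 0.56 and 0.67 g/100 ml at 50% and 0.75, 0.68 and 0.98 at 75%, without overlap. The arm with the higher means of the 3 rising genes was thus also the more sugary one. Within the 75% arm the libraries of 0.75, 0.68 and 0.98 g/100 ml held 113, 13.3 and 72.5 RPKM of ERF045. Whether sugar or stage carries the difference between arms was not tested. Without replicate 1, or without replicate 3, 0 of the 4 genes were called, with ERF045 at 1.03 and 1.45, and without replicate 2 ERF045 was at 2.16.

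On day 0 of 2014 ERF045 held 195, 138 and 201 RPKM at 50% and 253, 212 and 309 at 75%, without overlap, but none of the 4 genes was called, against 10.3% of all genes. The log2 difference was 0.53 for ERF045 (SE 0.40, limma adjusted p = 0.457), 0.62 for the LOB domain gene (SE 0.29, limma adjusted p = 0.165), 0.26 for WRKY19 (SE 0.12, limma adjusted p = 0.171) and -0.38 for the zinc finger gene (SE 0.15, limma adjusted p = 0.0841). Without replicate 2 the zinc finger gene was at -0.60 and called (limma adjusted p = 0.00996). All 4 signs are those of the change at onset. In the 136 tests over 4 genes and 34 time points, the 3 of day -7 of 2014 were the only calls, and 10 had an unadjusted p under 0.05. Over all genes between 0% and 10.3% were called per time point, with no gene called at 6 of the 34. Genes with an unadjusted p under 0.05 numbered between 147 and 4922 of 20770 per time point.

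**Figure D4:**
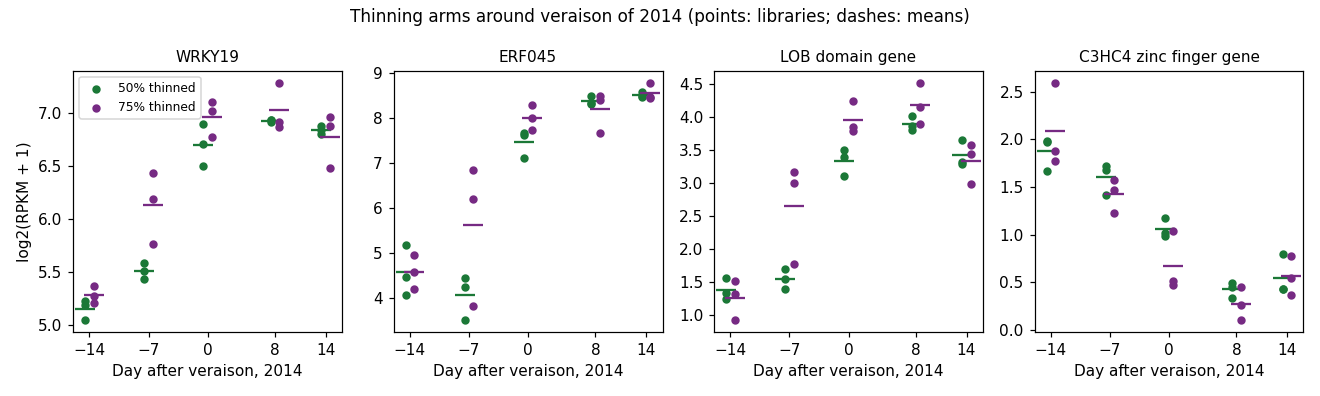
log2(RPKM + 1) of each gene on the first 5 time points of 2014, with 3 libraries (points) and their mean (dashes) per thinning intensity. On day -7 the 75% libraries of WRKY19 and the LOB domain gene lie above all 50% libraries, while replicate 2 of the 75% arm lies low in each of the 3 rising genes.

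The courses of the 3 rising genes were alike but each had closer companions elsewhere in the genome. Over the 68 means of season, time point and thinning intensity, Pearson's r of log2 levels was 0.904 between the LOB domain gene and ERF045, 0.883 between WRKY19 and ERF045 and 0.862 between WRKY19 and the LOB domain gene. ERF045 ranked 38th among 20769 genes in likeness to the LOB domain gene, and WRKY19 ranked 139th. The zinc finger gene had r between -0.870 and -0.809 with the other three. These values describe a shared rise or fall, since the means fall into green and ripening ones. Spearman's rho was 0.512 to 0.674 between the 3 rising genes and -0.538 to -0.326 between the zinc finger gene and each of them.

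The gene most like ERF045 was VIT_19s0090g00960 (r = 0.977), which went from 56.3 RPKM ± 58.4 (SD, n = 48) in green berries to 371 ± 102 on days 8 to 22 and 231 ± 112 (n = 36) in ripe ones. The gene most like the zinc finger gene was VIT_15s0021g02300 (r = 0.974), at 2.76 RPKM ± 2.02 in green berries and 0.0390 ± 0.0386 on days 8 to 22. The lowest values were -0.966 for ERF045 with VIT_12s0059g01480, at 5.90 RPKM ± 2.46 in green berries and 1.33 ± 0.301 on days 8 to 22, and -0.962 for the zinc finger gene with VIT_12s0057g01200, at 349 ± 110 and 685 ± 63.3. The numbers of genes with r over 0.9 were 100 for ERF045, 48 for the LOB domain gene, 45 for WRKY19 and 875 for the zinc finger gene, and those with r under -0.9 were 162, 30, 10 and 126. With Spearman's rho these numbers were 18, 0, 1 and 0 over 0.9, and 11, 0, 0 and 0 under -0.9. Other genes were then the most and least like ERF045 (0.946 and -0.934) and the zinc finger gene (0.826 and -0.799).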

How the data were processed

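The authors deposited RPKM values per gene ID. TopHat2 2.0.6 and Cufflinks 2.0.2 are named in the submitters' processing notes; their settings and the genome build were not given in the sources used here. Libraries were not strand-specific, per the labels' protocols, so reads of overlapping antisense genes cannot be told apart. No counts were used and the depth per library is unknown. Table columns carry the sample titles, which gave each its sample. Season was taken from the title, since a year tag differs from it for 134 samples.

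Genes with at least 1 RPKM in 3 libraries were tested in R 4.3.3 by limma 3.58.1 on log2(RPKM + 1) (trended prior variance, Benjamini-Hochberg adjustment over all genes, threshold 0.05). The fit had a mean for each of 68 groups, and stage, season and interval comparisons also required 2-fold. Green berries were those before day 0, and stage comparisons weighted the seasons equally. Thinning was fitted with the 34 time points as a factor and 1 coefficient per season. The second form of RPKM values was called where at least 20 of 9114 steadily expressed genes (5 RPKM or more in every 2012 mean) lay under 0.5 RPKM. Midpoint days and likeness are descriptions without a test. Exact permutation tests used scipy 1.17.1. The fits were tested on simulated data. The 4 genes and the lists were chosen with earlier results of these data known. The genes named were the 4, plus those most and least like them. The measure for the zinc finger gene's fall, and the leave-outs of day -6 of 2013 and of replicate 2 of day 80 of 2012, were chosen after seeing the data. Alternatives were another pseudocount, no filter, 2 scalings, the form as a covariate, a replicate block and left-out replicates or seasons.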

Additional observations from a re-analysis of the deposited data

Results flagged for a closer look

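The onset change differed between seasons for all 4 genes by the moderated F test in limma, with adjusted p = 0.0453 for the LOB domain gene, 4.59e-25 for WRKY19, 0.00351 for ERF045 and 0.00128 for the zinc finger gene. The same test called 75.8% of all genes, so these calls do not set the 4 genes apart. The days sampled within each stage also differed between seasons. The log2 changes of WRKY19 were 1.75, 0.71 and 1.32 in 2012, 2013 and 2014. Without day -6 of 2013 the adjusted p was 1.04e-06 for the LOB domain gene, 3.17e-10 for WRKY19, 0.0178 for ERF045 and 0.217 for the zinc finger gene.

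The onset difference of the LOB domain gene lost its call under 6 of the alternatives, with adjusted p = 0.0988 for a pseudocount of 0.1, 0.0545 with no filter, 0.0961 with median ratio scaling, 0.0569 with quantile normalization, 0.411 without replicate 2 and 0.0851 without replicate 3. That of ERF045 was lost without replicate 1 (0.0725) and that of the zinc finger gene without replicate 2 (0.174).

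The late change differed between seasons for WRKY19 (limma adjusted p = 1.18e-20) and ERF045 (8.12e-10), with the deepest falls in 2012, whose last samplings came latest after veraison. This test called 69.9% of all genes. Without the replicate 2 libraries of day 80 of 2012 the adjusted p was 4.43e-25 and 1.46e-12.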

How the results depend on the processing

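Of 916 log2 values recomputed under alternatives, 869 kept their direction and their side of the threshold, 16 lost a call, 4 gained one and 27 changed sign, 0 of these from a called value. The cause was not tested. At onset the zinc finger gene was at -0.64 with quantile normalization and not called. The median of all genes at onset was -0.24 as deposited, -0.17 with median ratio scaling and 0.09 with quantile normalization. Without season 2012 the late change of ERF045 was -0.74, leaving 0 late calls. Thinning calls at single time points numbered 0 without replicate 1 and 0 without replicate 3, and at most 4 with any replicate left out.

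Values that changed sign were small. The late change of the zinc finger gene was -0.039 with median ratio scaling, -0.030 without season 2012, -0.021 without season 2014, -0.0023 without the replicate 2 libraries of day 80 of 2012 and -0.028 to 0.051 without a replicate. By season it was -0.0025 in 2014 with median ratio scaling, 0.032 in 2013 with quantile normalization and 0.024 with the form as a covariate. Its ripe difference of 2013 against 2012 was -0.016 with quantile normalization, and its difference of 2014 against 2013 on days 8 to 22 was 0.077 with quantile normalization and 0.11 with the form as a covariate. The thinning difference of WRKY19 was -0.0062 in 2012 with quantile normalization, and over seasons -0.0095 without season 2014 and -0.035 with the 70 samples whose year tag goes with the season. With a replicate left out, the late change of 2012 was -0.27 to 0.11 for the LOB domain gene and -0.048 to 0.13 for the zinc finger gene, which was at -0.031 to 0.085 in 2014 and at -0.038 to 0.057 for ripe 2013 against 2012. Thinning differences then were -0.013 to 0.052 for the LOB domain gene in 2013, -0.0086 to 0.026 for WRKY19 in 2012, and -0.013 to 0.21 in 2012 and -0.017 to 0.075 in 2013 for ERF045. For the zinc finger gene they were -0.029 to 0.044 over seasons, -0.039 to 0.037 in 2012, -0.0044 to 0.057 in 2013 and -0.044 to 0.039 in 2014. 

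Same-numbered libraries of the 2 arms deviated together with r over 0.1 in 35 of 102 pairs, and 41 of 102 correlated best with their own number, so the numbers were not taken as pairing the samples. At 5 of the 34 time points all 3 pairs were over 0.1, days -18, 32, 63 and 80 of 2012 and day -20 of 2013. With the replicate block the number of calls was 4 at onset, 10 at onset by season, 1 late, 12 for intervals and 3 for thinning at single time points, as without it.

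The midpoint day moved beyond the spread of the left-out replicates in 22 of the 24 courses when linear RPKM replaced log2, which put ERF045 between day -1.24 and day 10.2. Read depth is unknown, which limits the zinc finger gene most, since its ripe values lie under 1 RPKM.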
